A study of Homo sapiens with 6 samples.

Results

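The regions described are the ATAC-seq peaks on the outer long arm of human chromosome 13, here called the 13q segment: all peaks that start at or after position 60000000 of hg38, the build that the coordinates fit. The stretch was chosen by its measured values, since an earlier look at the same peak lists had found its peaks ranked higher in resistant than in naïve cells, and the naïve against resistant values are therefore given as a description, with no test. The 13q segment held 696 of 154926 and 597 of 115694 peaks in the lists of the 2 naïve libraries, 7395 of 340558 and 6213 of 292030 in the 2 R1 libraries, and 1332 of 67558 and 1423 of 73484 in the 2 R2 libraries. It also holds the start sites of 125 protein-coding genes, of 20033 on the 24 chromosomes.

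In ATAC-seq, a transposase inserts sequencing adapters where chromatin is open, and a peak marks a stretch where insertions pile up over the background. The cells were SK-N-AS, a neuroblastoma cell line, regrown in culture from xenografts in mice and not treated in culture. Naïve cells came from xenografts of mice given vehicle. R1 and R2 came from xenografts of mice given indisulam, a degrader of the splicing factor RBM39, that had become resistant, were at their second relapse and were taken during the following round of treatment. Each library was made from 100000 cells, and the methods leave unstated if the libraries of one cell type came from separate cultures, so that the spread between them may be technical. The lists differed in depth: the background rate, in tags per window as recovered from the fold values, was 2.29 and 1.35 for naïve cells, 7.94 and 5.43 for R1, and 0.850 and 0.899 for R2. For this reason peaks are compared by their share of a list and by percentile rank within a library. Promoter peaks of the neuroblastoma genes HAND2, GATA3, ISL1, TH and DBH and of the mesenchymal genes PRRX1, TWIST1, VIM, FN1 and FOSL1 were found in all 6 libraries, and that of YAP1 in 5. The promoters of PTPRC (leukocytes) and ALB (hepatocytes) had no peak in any library, while EPCAM (epithelium) had one in all 6 and PECAM1 (endothelium) in 5.

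Chromosome 13 carries its protein-coding genes on its long arm, whose outer part is known for the miR-17-92 cluster, for regulators of ubiquitin ligases such as CUL4A, and for neural crest and neuronal genes such as EDNRB, ZIC2 and the SLITRK family. CUL4A is a scaffold of the CRL4 ubiquitin ligases, the class through which indisulam brings RBM39 to degradation by way of the receptor DCAF15. The miR-17-92 transcript, a known target of MYC proteins, is cut into several small RNAs that pair with messenger RNAs through their seed.

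The mature sequences of the cluster are shown because its host gene, MIR17HG, had one of the largest promoter differences among the listed genes. They were copied from RefSeq (GRCh38.p14, plus strand of chromosome 13), and the capitals mark the seed, bases 2 to 8.
hsa-miR-17-5p: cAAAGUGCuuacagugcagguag
hsa-miR-20a-5p: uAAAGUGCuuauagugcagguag
hsa-miR-18a-5p: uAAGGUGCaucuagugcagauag
hsa-miR-19a-3p: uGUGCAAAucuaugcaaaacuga
hsa-miR-19b-3p: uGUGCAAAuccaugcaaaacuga
hsa-miR-92a-3p: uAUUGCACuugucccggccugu
The first pair share a seed, as do both miR-19 forms, and miR-18a-5p and miR-92a-3p each have another. The sequences lie between 91350618 and 91351382, downstream of the start of MIR17HG.

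The promoter of MIR17HG, chr13:91347437-91347736 on the plus strand (RefSeq, GRCh38.p14), runs from 250 bases before the start to 50 after it. It is shown because the peak over it, like those of many other genes of the stretch, ranked higher in all resistant libraries. Capitals mark the NF-Y motif CCAAT and the GC box GGGCGG on either strand, with 1 and 6 matches. A pair of the GC boxes overlap.
MIR17HG promoter: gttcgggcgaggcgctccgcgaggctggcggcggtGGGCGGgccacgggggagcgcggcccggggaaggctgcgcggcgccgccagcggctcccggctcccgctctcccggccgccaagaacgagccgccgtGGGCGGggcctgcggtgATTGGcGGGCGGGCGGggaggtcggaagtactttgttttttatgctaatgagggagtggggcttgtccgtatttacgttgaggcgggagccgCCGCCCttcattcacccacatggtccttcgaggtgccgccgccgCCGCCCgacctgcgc
Of 35116 RefSeq promoters of this length, 34.6% hold CCAAT and 45.0% hold GGGCGG on either strand.

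The next windows, 151 bases around peak summits on the plus strand of hg38, show the strongest resistant peaks with no naïve peak, the region with the largest rank difference (GAS6), and one of those with the lowest (STK24). Capitals mark the same motifs and, searched likewise on both strands, TGANTCA (AP-1), CCGGAA (ETS), CACGTG (E-box) and GGAATG (TEAD). TNFSF13B holds 1 GC box, GPC6 holds 2 CCAAT motifs and STK24 holds 1 AP-1 motif. In order, the windows are chr13:108270055-108270205 in a coding exon of TNFSF13B, chr13:114199596-114199746 in an intron of CFAP97D2, chr13:94308772-94308922 in an intron of GPC6, chr13:113824227-113824377 in an intron of GAS6 and chr13:98484902-98485052 in an intron of STK24.
TNFSF13B: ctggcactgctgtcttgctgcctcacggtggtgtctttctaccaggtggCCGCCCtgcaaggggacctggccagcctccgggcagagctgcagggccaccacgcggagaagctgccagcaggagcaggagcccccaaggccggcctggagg
CFAP97D2: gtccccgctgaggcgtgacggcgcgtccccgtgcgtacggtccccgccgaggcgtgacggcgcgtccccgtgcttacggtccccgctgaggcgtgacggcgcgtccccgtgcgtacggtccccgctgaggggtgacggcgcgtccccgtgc
GPC6: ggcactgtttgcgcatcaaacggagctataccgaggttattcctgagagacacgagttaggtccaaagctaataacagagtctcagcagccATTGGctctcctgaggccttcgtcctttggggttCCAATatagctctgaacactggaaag
GAS6: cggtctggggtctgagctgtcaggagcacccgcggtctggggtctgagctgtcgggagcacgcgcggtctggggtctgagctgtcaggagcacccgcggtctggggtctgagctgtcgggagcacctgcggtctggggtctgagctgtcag
STK24: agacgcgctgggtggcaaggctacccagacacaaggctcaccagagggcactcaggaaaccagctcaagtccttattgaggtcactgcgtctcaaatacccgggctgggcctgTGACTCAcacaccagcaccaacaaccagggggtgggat
The CFAP97D2 and GAS6 windows are tandem repeats: shifted against itself by 39 bases the first matched at 95.5% of positions, and the second matched at 94.1% when shifted by 32 bases.

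The 13q segment took a larger part of the resistant lists than of the naïve lists. Its peaks made up 0.449% (95% Wilson interval 0.417 to 0.484) and 0.516% (0.476 to 0.559) of the naïve lists. For R1 the shares were 2.17% (2.12 to 2.22) and 2.13% (2.08 to 2.18), and for R2 they were 1.97% (1.87 to 2.08) and 1.94% (1.84 to 2.04). All 4 resistant shares lay above both naïve shares, and the mean share was 4.25 times as high. R1 had the deepest lists and R2 the shallowest. The intervals cover counting error only.

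The same was seen among the strongest peaks. Of the 20000 peaks with the highest −log10 p of each list, 97 and 79 lay on the 13q segment for naïve cells, against 341 and 330 for R1 and 410 and 401 for R2. Their mean share was 0.440% ± 0.0636 (SD, n = 2) in naïve, 1.68% ± 0.0389 (n = 2) in R1 and 2.03% ± 0.0318 (n = 2) in R2 libraries, and the cell types did not overlap.

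**Figure D1:**
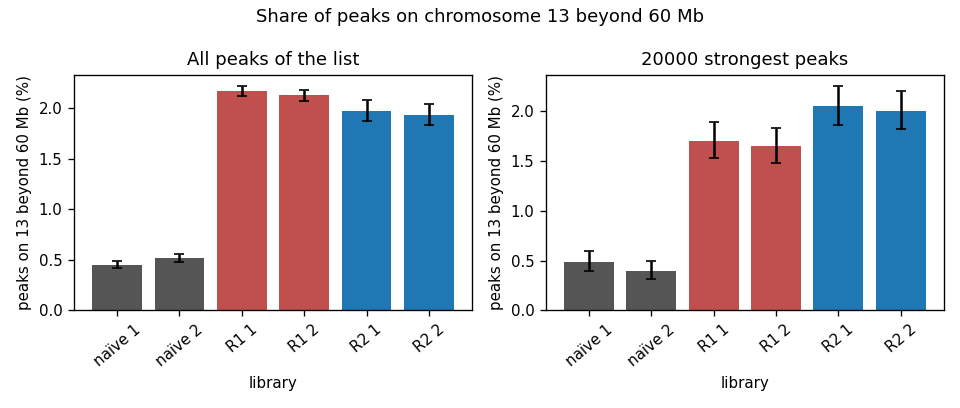
Share of peaks on chromosome 13 beyond 60 Mb in each library (percent, bars, with 95% Wilson intervals), over the whole list at left and over the 20000 strongest peaks at right. The naïve libraries (grey) sit at or below 0.516% in both panels and all R1 (red) and R2 (blue) libraries above it.

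Along the arm, peaks were more frequent in resistant lists in every 5 Mb window beyond the boundary. The lowest of the 4 resistant libraries lay above the higher naïve library in all of these windows. The same held in the windows before 60 Mb, except those from 25 to 30 Mb and from 40 to 50 Mb. Before 60 Mb the ratio of mean frequencies ran from 1.07 between 40 and 45 Mb to 13.6 between 55 and 60 Mb. Beyond the boundary it ran from 2.89 in the last window, from 110 Mb to the end, to 22.6 between 65 and 70 Mb. In that window the naïve lists held only 3 and 1 peaks. In the last window the naïve lists held 503 and 422 peaks, or 72.3% and 70.7% of their peaks on the 13q segment. R2 had a like concentration there, with 67.3% and 66.8%, while R1 had 29.8% and 33.7%. R1 instead had 35.3% and 34.0% of its peaks between 80 and 100 Mb, against 13.8% and 13.7% in naïve and 16.1% and 16.8% in R2 libraries. Depth moved with this spread, since the R1 lists reach weaker peaks, and its part in it was not tested.

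The 60 Mb limit did not coincide with where the R1 lists became dense. Between 59 and 60 Mb, just outside, R1 held 82 and 65 peaks against 1 and 0 in naïve and 4 and 2 in R2, and between 58 and 59 Mb it held 33 and 29. Between 54 and 56 Mb no library had a peak. For regions with a peak in all 6 lists, explained below, the last 3 outside the limit were the promoters of VPS36, CKAP2 and SUGT1. They start at 52450277, 52455273 and 52652583, and had resistant minus naïve rank differences of 2.77, -5.86 and -14.3 percentile points. The first 3 inside were 1 region at the promoter of DIAPH3 and 2 at the start of TDRD3, with 20.3, 19.6 and 53.5. The DIAPH3 region starts at 60163586, and no such region lay between it and that of SUGT1. These values therefore cannot place where the difference begins. Both TDRD3 regions had the same tags in R1, 315 and 194.

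**Figure D2:**
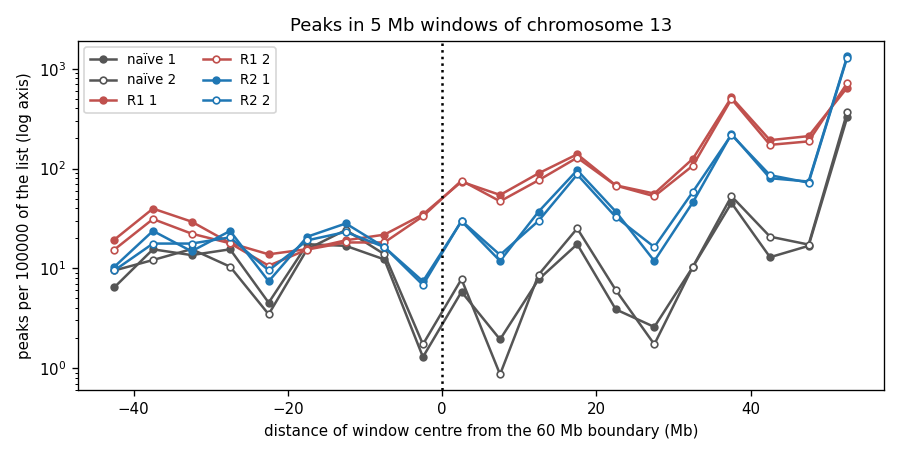
Peaks per 100000 of each list (log axis) in 5 Mb windows of chromosome 13, against the distance of the window centre from the 60 Mb boundary (dotted line). Libraries of a cell type share a colour, with filled and open points for its first and second library. Right of the line the naïve libraries lie lowest in every window. Left of it they also do, except in the windows from 25 to 30 Mb and from 40 to 50 Mb of the chromosome.

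A peak of the first R2 list, the shallowest list, can be looked for in the deeper lists. Of its 1332 peaks on the 13q segment, 37.2% overlapped a peak of the first naïve library by at least 1 base and 32.7% one of the second. Of its 66226 peaks elsewhere, 85.3% and 77.2% did so. In the R1 libraries the shares were alike, 97.2% and 95.9% on the 13q segment against 97.2% and 96.3% elsewhere, and in the other R2 library 64.4% against 62.2%. The part of depth in these shares was not tested. In all, 313 peaks (23.5%) were in all 4 resistant lists and in neither naïve list, against 1.70% elsewhere.

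Promoter and distal peaks both showed this. A peak was called promoter when it lay within 1000 bp of a GENCODE transcript start, coding or not. Of the 322 promoter peaks of the first R2 library on the 13q segment, 55.9% and 53.1% were in the naïve lists, against 91.7% and 86.6% elsewhere. Of the 1010 distal ones, 31.3% and 26.1% were, against 80.6% and 70.5%. In the other direction, 72.4% to 78.2% of the naïve peaks on the 13q segment overlapped an R2 peak, against 28.6% to 40.7% of all naïve peaks.

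To compare strength, 36449 peaks of the first R2 list that overlapped a peak in all other lists were ranked within each library, from 0 for the weakest to 100 for the strongest. Of these common regions, 298 lay on the 13q segment. All peaks without a naïve peak are left out here. Each region took the value of the strongest peak that overlapped it in each other list. A broad R1 peak can thus give the same value to several regions, which are then not independent. The median percentile rank of the 298 regions was 9.84 and 17.5 for naïve cells, 51.1 and 51.4 for R1, then 64.5 and 63.6 for R2. The median region of this stretch was thus among the weak common regions in naïve cells and above the middle in R2. In R1 it was near the medians of all common regions, 49.9 and 50.1. Every common region is a peak of the first R2 list, a resistant library, so regions too weak to be called there could not enter. The part of this choice in the low naïve ranks and in the counts below was not tested.

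The median difference in rank, resistant minus naïve, was 31.5 points (interquartile range 19.9 to 43.5), and it was 28.8 for R1 and 33.8 for R2. Fold enrichment, centred per library on the median of all common regions, was 1.64 times as high in resistant as in naïve libraries at the median, 1.56 times in R1 and 1.71 times in R2. Of the 298 regions, 225 (75.5%) ranked higher in all 4 resistant than in both naïve libraries, where 12.7% of all common regions did, and 0 ranked lower in all 4, where 12.8% did. The other 73 overlapped between the groups. Since the stretch was chosen on this contrast, the counts are descriptive.

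The 144 promoter regions ranked at a median of 30.6 and 35.2 in naïve, 76.9 and 82.5 in R1 and 82.7 and 82.9 in R2 libraries. The 154 distal regions started lower and stayed lower, at 7.22 and 12.1, 39.4 and 42.1, and 51.0 and 54.7. The rank differences of both classes were close, 31.7 and 31.4 points, and so were their fold enrichment ratios, 1.71 and 1.55. All resistant libraries were higher at 120 promoter regions (83.3%), where 14.6% of other promoter regions were. They were higher at 105 distal regions (68.2%), where 9.37% of other distal regions were.

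**Figure D3:**
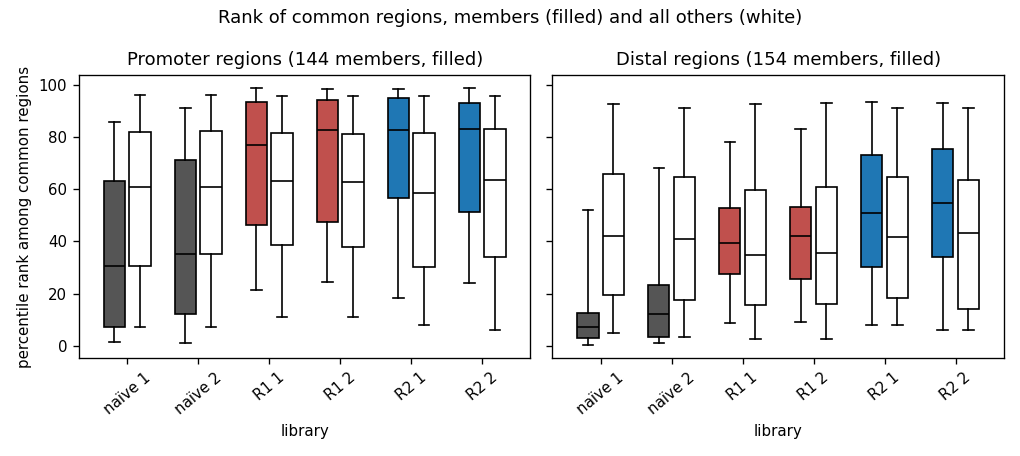
Percentile rank of common regions per library, for promoter regions at left and distal regions at right. Filled boxes are the 144 and 154 regions of the 13q segment and white boxes are all other common regions, with the median, the quartiles and whiskers to the 5th and 95th percentiles. The filled boxes lie low in the naïve libraries and higher in all R1 and R2 libraries, while the white boxes stay level.

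The difference was spread along the stretch. The ratio of fold enrichment was 1.74 for the 28 regions between 60 and 80 Mb, 1.80 for 47 between 80 and 100 Mb, 1.67 for 28 between 100 and 110 Mb and 1.60 for 195 beyond 110 Mb. The regions beyond 110 Mb were mostly distal, 126 of 195, and the weakest in naïve cells, with median ranks of 7.22 and 12.1.

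Between the resistant lines, R2 ranked above R1 in all libraries at 109 regions (36.6%), where 34.5% of all common regions did, and R1 ranked above R2 at 53 (17.8%), where 26.4% did. The median R2 minus R1 rank difference was 0.132 points at promoter regions and 7.81 at distal regions.

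Other stretches differed less in rank. The 53 common regions of chromosome 13 before 60 Mb had a median difference of 5.00 points and a fold enrichment ratio of 1.07. Of them 7 (13.2%) were higher in all resistant libraries, where 12.7% of all common regions were. Chromosome 6 beyond 60 Mb had 25.6 points and 1.44 over 168 regions, with 88 (52.4%) higher. Chromosome 20 had 16.7 and 1.29 over 2030, with 811 (39.95%) higher, and chromosome 22 had 18.3 and 1.32 over 1024, with 344 (33.6%) higher. The stretches of chromosomes 6, 20 and 22 were set beside the 13q segment because they also had higher ranks in resistant libraries. Chromosome 13 before 60 Mb is the rest of the same chromosome, and its median rank difference was -2.74 points for R1 and 13.1 for R2. The differences of these stretches from the 13q segment were not tested. In chromosome 22 R1 had the higher ratio, 1.43 against 1.21 in R2, whereas on the 13q segment R2 had.

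**Figure D4:**
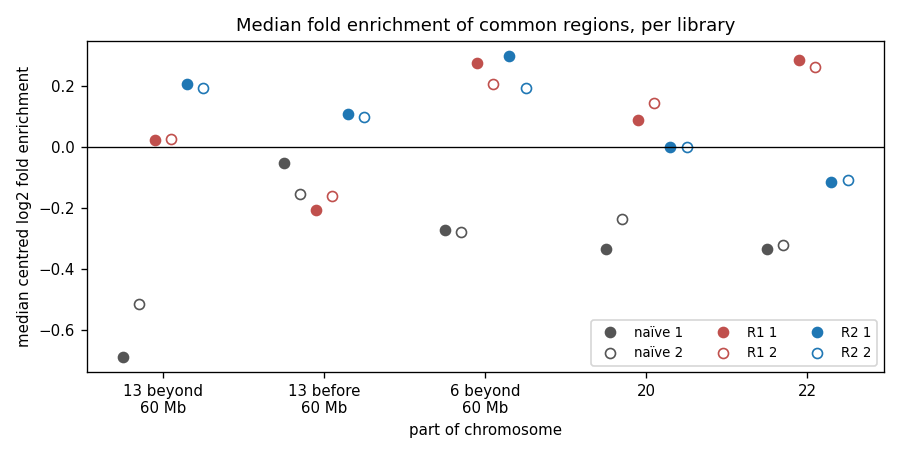
Median fold enrichment of common regions (log2, centred per library on all common regions) for the 13q segment and 4 other stretches, with a point per library. On the 13q segment the naïve libraries lie at -0.69 and -0.51 and the resistant libraries between 0.02 and 0.21.

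The highest-ranked regions of the stretch were promoters that were strong in all libraries. The region at ANKRD10, an ankyrin repeat gene, had 103 and 65 tags in naïve, 601 and 391 in R1 and 83 and 103 in R2 libraries, and ranked from 98.8 to 99.8. The promoter of DNAJC3, a chaperone of the endoplasmic reticulum, had 74 and 52, 489 and 310, and 52 and 65 tags. Those at ING1, TMTC4 and CARS2 followed. Near the top of the scale ranks can hardly rise, and the fold enrichment ratios of these 5 regions were 1.41 to 1.71, like the rest of the stretch.

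The region with the largest rank difference was in an intron of GAS6, the ligand of the TAM receptor kinases, at chr13:113823929-113824943. It had 18 and 10 tags in naïve, 176 and 143 in R1 and 72 and 57 in R2 libraries, and ranked at 12.8 and 3.63, 71.4 and 83.1, and 99.4 and 99.1. Its fold enrichment ratio was 4.53, and its summit window is the tandem repeat printed above. The next were in introns of ADPRHL1, of RASA3 (2 regions) and of MCF2L, a pair of genes for regulators of small GTPases, with differences of 71.7 to 78.3 points and ratios of 2.61 to 3.39. Both RASA3 regions had the same tags in R1, 192 and 141.

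The smallest rank differences lay in regions where R1 was low. In the region of a PCID2 exon at chr13:113187201-113187611, ranks were 65.7 and 76.3 in naïve, 4.32 and 3.16 in R1 and 69.3 and 84.7 in R2 libraries, a difference of -30.7 points. The STK24 intron printed above ranked at 70.1 and 51.8, 15.2 and 5.79, and 79.1 and 78.3, or -16.3 points. STK24 is a kinase of the STE20 family. Regions near EFNB2 and ANKRD10 were like it, with -16.2 and -10.3 points, and a second GAS6 intron region had -9.73. The libraries of R1 were below both naïve libraries in all 5 of these regions and those of R2 were above both in 3, at STK24, EFNB2 and ANKRD10.

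Some strong resistant peaks had no counterpart in naïve cells. Of all first R2 peaks that overlapped the 20000 strongest peaks of all 4 resistant lists, 12385, only 49 (0.396%) had no naïve peak, and 26 of these were on the 13q segment, where 205 such strong peaks lay (12.7%). In the other direction there were few such peaks anywhere: of 14387 first naïve peaks in the top 20000 of both naïve lists, 11 had no peak in any resistant list, and of the 68 on the 13q segment 0 did. The resistant lists include those of R1, the deepest, and the part of depth in these low counts was not tested. Of the 26, the 3 with the best mean position are described, a choice made after their values were seen. The first lies in a coding exon of TNFSF13B, the gene of the B-cell survival factor BAFF, at chr13:108269882-108270296. It had 207 and 135 tags in R1 and 21 and 18 in R2, at list positions 3414, 3599, 5264 and 7914.

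The second, in an intron of CFAP97D2 at chr13:114198657-114199849, had 138, 82, 28 and 23 tags in the same order, and its summit lies in the other tandem repeat. The last, in an intron of the proteoglycan gene GPC6 at chr13:94308711-94309028, had 146, 100, 18 and 15 tags. All 26 had at least 12 tags in the first R2 library. They were chosen for the absence of a naïve peak, and the part of depth in that absence was not tested.

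Tandem repeats, counted after those windows were seen, were more common at the end of the arm. A summit window was counted as one when it matched itself at 80% or more of positions at a shift of 8 to 60 bases. This held for 68 of 896 first R2 peaks beyond 110 Mb (7.59%), 1 of 436 on the rest of the 13q segment, and 2.29% of peaks elsewhere. The fold enrichment ratio was 1.72 for the 13 common regions with a repeat and 1.63 for the 285 without, against 1.07 and 0.998 elsewhere. By rank the order was the other way, with median differences of 22.5 points with a repeat and 31.5 without. Of the 13 and the 285, 7 (53.8%) and 218 (76.5%) were higher in all resistant libraries. Elsewhere 6.98% of common regions with a repeat and 12.2% of those without were.

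Motif content was near that of other peaks of the same class in most cases. Within the 151-base windows, AP-1 motifs were in 3.73% of the promoter peaks on the 13q segment and 3.62% of others, and in 8.32% and 7.48% of distal peaks. The E-box CACGTG was in 6.34% of distal peaks on the 13q segment against 3.76% of others, and in 4.66% and 4.56% of promoter peaks. CCAAT was in 12.7% of the promoter peaks against 16.6%, and GGGCGG in 33.5% against 39.7%. These shares were not tested.

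Gene by gene, each promoter was given the percentile rank of its strongest peak among all protein-coding genes, with a rank of 0 where there was no peak. Of the 125 genes, 120 had a promoter peak in some library and 92 in all 6. Of the 120, 90 ranked higher in all 4 resistant than in both naïve libraries, where 10.2% of 17582 genes did, and 0 ranked lower, where 13.5% did. The median rank of the 120 was 53.7 and 50.9 in naïve, 85.5 and 86.0 in R1 and 84.3 and 82.2 in R2 libraries. The median difference was 20.5 points, and the median fold enrichment ratio, over the genes with a peak in all libraries, was 1.58, from 1.15 to 2.64. For all other genes it was 0.972. Several neighbours share a promoter peak (MZT1 and BORA, DIS3 and PIBF1, COMMD6 and UCHL3, DCUN1D2 and TMCO3), so their values are not independent.

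MIR17HG, the host of the miRNAs printed above, was among the genes with the larger ratios. Its promoter had 38 and 22 tags in naïve, 430 and 255 in R1 and 43 and 37 in R2 libraries. It ranked at 75.3 and 66.8, 99.5 and 99.0, and 98.6 and 96.8, so that the groups did not overlap, and the ratio was 2.26.

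The counts of the gene lists that follow are to be read against the 90 of 120 for the whole stretch and its median ratio of 1.58, and nothing was tested between lists. All 9 genes of ubiquitin and neddylation ranked higher in all resistant libraries, with a median ratio of 1.75. CUL4A, the CRL4 scaffold, ranked at 47.7 and 66.8 in naïve, 94.7 and 86.4 in R1 and 92.6 and 80.2 in R2 libraries, a ratio of 1.88. Its peak in the resistant libraries has the same tags as that of its neighbour PCID2. In the naïve libraries their tags differ, with 22 and 22 for CUL4A and 34 and 26 for PCID2, whose ratio was 1.40. The ratio of CUL4A thus depends on which naïve peak is set against the shared resistant peak. UCHL3, a ubiquitin hydrolase, had 28 and 22 tags, 278 and 204, and 43 and 32, a ratio of 2.15. DCUN1D2, a neddylation factor, was already strong in naïve cells, at 85.1 and 91.4, and had a ratio of 1.36. KCTD12, which the list counts but which is known as an auxiliary subunit of GABA-B receptors, and UBAC2, a protein of the endoplasmic reticulum, had differences of 14.4 and 18.5 points.

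All 7 genes of RNA processing and decay were also higher, with a median ratio of 1.58. DIS3, a catalytic subunit of the RNA exosome, ranked at 69.4 and 89.6 in naïve, 98.4 and 93.8 in R1 and 98.2 and 93.8 in R2 libraries. TDRD3, PCID2 and UPF3A, which acts in nonsense-mediated decay, had differences of 18.5, 16.0 and 25.8 points. ARGLU1, a modulator of splicing, had a weaker promoter, at 37.1 and 41.2, 56.5 and 61.3, and 69.0 and 64.7.

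Of 10 genes of cell division and DNA repair, 9 were higher. DIAPH3, a formin that builds actin filaments, had 45 and 25 tags in naïve, 415 and 263 in R1 and 41 and 56 in R2 libraries, a ratio of 2.14. MZT1, of the gamma-tubulin ring complex, and PIBF1, a centrosome protein, had differences of 23.3 and 16.5 points, and ING1, a chromatin reader, had 1.34 and was at 98.2 or above throughout. ERCC5, a repair nuclease, was the one not called: it ranked at 64.5 and 61.8, 79.4 and 65.1, and 79.3 and 61.3.

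Of 8 developmental transcription factors, 5 were higher. KLF5 was strongest, at 83.2 and 92.2 in naïve, 99.6 and 99.2 in R1 and 99.3 and 99.5 in R2 libraries. KLF12, ZIC2 and DACH1 had differences of 29.2, 28.0 and 29.7 points. POU4F1, a neuronal factor, had no peak in the first naïve and the second R2 library, and SOX1 had peaks in the first naïve and both R1 libraries only. Neither was called, nor was SOX21.

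Of 9 neuronal adhesion and excitability genes, 4 had no naïve promoter peak and 3 had a peak in all 6 libraries, and 5 were higher in all resistant libraries. SLITRK1, a synaptic adhesion protein, had no naïve peak, 106 and 66 tags in R1, and 15 and 21 in R2. PCDH20 had 21 tags in the first naïve library and no peak in the second, 194 and 121 in R1, and 15 and 19 in R2. FGF14, a modulator of sodium channels, had no peak in the first naïve library and 13 tags in the second, and between 12 and 171 in the resistant ones. These genes had a peak in all 4 resistant libraries, whereas SLITRK6 lacked one in the first R2 library and MYO16 and KLHL1 in both. PCDH9 and SLITRK5 were stronger, at 77.4 and 59.3 or above in all libraries.

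Of 13 genes of growth factor and GTPase signalling, 11 were higher. EFNB2, an ephrin ligand, and RAP2A, a small GTPase, were strong throughout, with differences of 9.88 and 8.88 points. IRS2, the insulin receptor substrate, ranked at 85.9 and 88.6, 97.7 and 98.4, and 96.2 and 98.5. SPRY2, an inhibitor of receptor tyrosine kinase signalling, had 30 and 25 tags, 248 and 164, and 33 and 42, a ratio of 1.80. RASA3 had the largest ratio of any listed gene, 2.64, with ranks of 49.6 and 41.2 in naïve and 82.2 or above in resistant libraries. EDNRB, the endothelin receptor B of neural crest cells, had no naïve peak and 118, 74 and 12 tags in both R1 and the first R2 libraries, and no peak in the second R2 library.

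Extracellular matrix and proteoglycan genes were higher in 4 of 6, among them GPC5, with a difference of 28.4 points, and the collagen IV genes COL4A1 and COL4A2, with 14.0 and 10.1. HS6ST3, a heparan sulfate sulfotransferase, lacked a peak in the first naïve library, and ITGBL1 in the first naïve and both R2 libraries. Of 6 transporters and pumps, 4 were higher. ABCC4, the efflux pump MRP4, was not: it ranked at 77.8 and 80.7 in naïve, 91.9 and 95.4 in R1, and 95.0 and 75.9 in R2 libraries. SLC15A1, a peptide transporter, had no naïve peak and 86, 50, 10 and 10 tags in the resistant libraries, and SLC10A2 had a peak in the first R1 library only.

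Of 11 genes of endoplasmic reticulum folding and metabolism, 10 were higher, with a median ratio of 1.55, and all but GGACT ranked at 41.4 or above in every library. TPP2, a peptidase, ranked at 84.1 and 91.4, 99.3 and 99.3, and 97.9 and 93.8. Of the 3 coagulation genes F7, F10 and PROZ, 2 were higher and PROZ was not. The 3 immune genes had no naïve peak: TNFSF13B had one in all resistant libraries, GPR183 in both R1 libraries only and GPR18 in the first R1 library only.

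**Figure D5:**
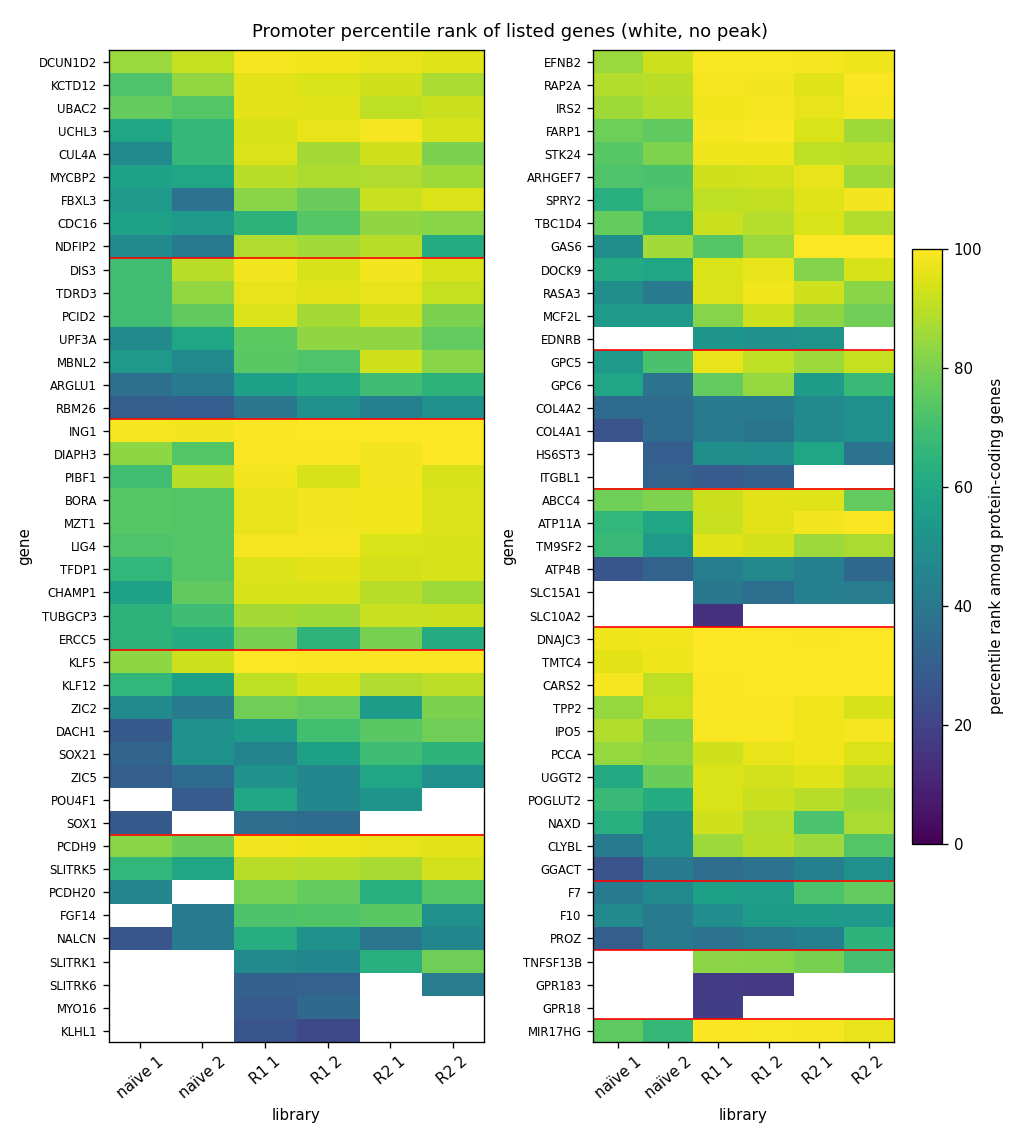
Percentile rank of the promoter of each listed gene among protein-coding genes (colour) in each library, with white for no peak. Red lines part the 12 gene lists, ordered from left top to right bottom, and within a list genes are sorted by mean rank. The naïve columns are darker than the resistant columns for most genes, and most white cells are in the naïve columns or in the R2 columns of rows without a naïve peak.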

How the data were processed

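ATAC-seq peak lists of 6 SK-N-AS libraries, 2 each of naïve, R1 and R2 cells, were used. The authors aligned reads with BWA, marked duplicates with Picard, shifted read ends for Tn5 and called peaks per library with MACS2. The methods name hg19, the labels list hg19 and hg38, and all peaks fit the hg38 chromosome ends. For each peak the deposited columns give the fold enrichment (a ratio to background) together with 2 significance values from the authors' peak caller, the p-value and the q-value, each as −log10.

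Tags and background rates were recovered from the folds, which gave whole tags for 100% of peaks within 0.05. Overlap meant at least 1 base. Ranks used the p-values, and fold enrichment is (tags + 1) over (rate + 1), log2 transformed and centred per library. Promoters lay within 1000 bp of GENCODE release 44 starts. The overlap and rank functions were tested on simulated data. The members, gene lists and comparisons were chosen with earlier results of these data known. Genes were named by a rule: MIR17HG, CUL4A, IRS2, KLF5, SPRY2, EDNRB, ABCC4 and ARGLU1, and per list those with the 4 highest mean ranks or lacking a promoter peak in some library. Others named were picked after their values were seen. Named regions are the 5 with the highest mean rank and the 5 with the largest and smallest differences. No test was made between cell types, since the selected contrast is descriptive and an exact one-sided test of 2 against 4 libraries cannot go below a p of 0.0667. Python 3.11.15, pandas 2.3.3 and BEDTools 2.31.1 were used. No sample was left out. The result for a further neuroblastoma marker gene is not reported here.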

Additional observations from a re-analysis of the deposited data

Results flagged for a closer look

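In 12 of the 298 common regions of the 13q segment both R1 libraries ranked below, and both R2 libraries above, both naïve libraries. The reverse was shown by 0 regions. Over all 36449 common regions these counts were 2023 and 1092, so that both were a smaller share on the 13q segment. All common regions are peaks of the first R2 list, and a region without a peak there could not be counted. The difference between R1 and R2 was not tested. At promoter-labelled or intronic sites, R2 minus R1 was 81.1 percentile points near ANKRD10 (starting at 110869852), 76 in CUL4A, 68.2 in STK24, 65.5 in PCCA, 59.6 in RAB20 and 53.6 in GPC6. Between genes it was 77 near CHAMP1, 66.9 near KLF12, 66.2 near EFNB2, 65.7 at a second site near ANKRD10 (110954993), 39.4 near ENSG00000285566 and 17.1 near NDFIP2. In the CUL4A intron the ranks were 19.4 and 29.2 in naïve, 7.12 and 9.25 in R1 and 83.8 and 84.7 in R2 libraries.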

How the results depend on the processing

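No paired analysis was possible because the labels do not say that libraries with the same number belong together and no result comes from a test. No result reversed. The median rank difference was 31.5 points, and 24.97 when an overlap fraction of 0.5 was required. The median fold enrichment difference was 0.71 on the log2 scale, and 0.91 without centring. The count of common regions higher in all resistant libraries was 225, and 140 of 195 at a −log10 q of at least 5. The share of the strongest peaks, resistant minus naïve, was 1.41 percentage points, 1.02 among the top 10000 and 1.77 among the top 50000. The promoter rank difference of genes was 20.5 points, and 22.9 within 500 bp. The count of strong resistant regions with no naïve peak was 26, with 1 in the top 10000, 171 in the top 50000 and 13 at an overlap fraction of 0.5. Ranking by fold gave the same values by construction, since fold and p order peaks alike at 1 background rate per library.

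Leaving out each library in turn gave rank differences of 28.2 to 33.5 points, log2 fold differences of 0.57 to 0.75, counts of common regions of 229 to 374, shares of 1.35 to 1.48 percentage points, promoter differences of 19.3 to 21.7 points, counts of genes of 90 to 98 and counts of strong regions of 29 to 52. The highest count of common regions came without the second naïve library and the highest count of strong regions, 52, without the first. With a library left out, the set of common regions changes and fewer libraries have to be separated. These counts are thus not comparable to those with all libraries, and the matching shares over all features were not computed. Depth limits which peaks could be called in each library, and 2 libraries per cell type limit the precision. By background rate the naïve lists (2.29 and 1.35) were deeper than those of R2 (0.850 and 0.899) and shallower than those of R1 (7.94 and 5.43). The part of depth in the absence of naïve peaks was not tested.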
